A study of Mus musculus with 36 samples.

Results

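Promoters of mouse neural stem cells (NSCs) that contact one another were described here through pairs of captured DNA fragments that the loop list of a promoter capture Hi-C library named in both orders, from the first to the second and from the second back to the first. A fragment counted as captured when it was listed first in at least 1 loop of its library, so a pair in both orders was seen from each of its ends. Outside chromosome 11 and chromosome 6 from 100 Mb on, which were left out, the wildtype (WT) library held 6754 such pairs and the Tet triple knockout (TKO) library held 5634, each counted once. Together these were 10534 distinct pairs. Outside the left-out regions, WT pairs in both orders were 14.7% of 45947 distinct fragment pairs of WT, and TKO pairs 13.7% of 41086. The whole lists, left-out regions included, held 51990 distinct fragment pairs in WT and 51122 in TKO. The series holds 36 samples of male V6.5 embryonic stem cells (ESCs) of mixed 129/C57BL/6 background and of NSCs grown from them. WT cells carry intact Tet genes, and TKO cells lack Tet1, Tet2 and Tet3 from the ESC stage on. NSCs were taken on day 6 of NSC culture, after 1 passage. ESCs had been freed of feeder cells by preplating for 45 minutes. RNA came from 3 independent WT and 2 independent TKO lines in each cell type, and capture Hi-C from 1 WT and 1 TKO NSC sample, whose number of lines the labels do not give.

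TET enzymes oxidize 5-methylcytosine in DNA, the first step in removing it, and act at many promoters and enhancers. Promoter capture Hi-C crosslinks chromatin, joins DNA ends that lie near each other in the nucleus, and enriches the joined molecules for promoter fragments before sequencing. Most capture loops run from a promoter to an uncaptured fragment, whereas promoter-promoter contacts join genes with each other. Housekeeping genes, paralogous developmental genes and replication-dependent histone genes, which are transcribed together in S phase at the histone locus body, are known for such contacts.

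Of the 8659 fragments in pairs, 7693 carried a start site or an end of a RefSeq gene, and the others matched none in the RefSeq table. The sequences of 6 promoters show the kinds of start site that these fragments held. They run from 250 bases before to 50 after the start, were taken from RefSeq on the GRCm38.p6 build, and are written 5′ to 3′ on the gene's strand. In the 4 histone promoters of chromosome 13, capitals mark the octamer ATTTGCAT, the TATA box TATAAA and the CCAAT box, on either strand. H2bc11 (chr13:22042948-22043247, plus strand) and H2bc3 (chr13:23746484-23746783, plus strand) formed the strongest histone pair of WT that TKO did not list. H4c11 (chr13:21734784-21735083, plus strand) and H2bc7 (chr13:23574158-23574457, minus strand) lay at ends of the strongest pairs listed in TKO alone. Olig2 (chr16:91225300-91225599, plus strand) and Rhob (chr12:8499960-8500259, minus strand) have CpG-rich promoters, with each CG in capitals.
H2bc11: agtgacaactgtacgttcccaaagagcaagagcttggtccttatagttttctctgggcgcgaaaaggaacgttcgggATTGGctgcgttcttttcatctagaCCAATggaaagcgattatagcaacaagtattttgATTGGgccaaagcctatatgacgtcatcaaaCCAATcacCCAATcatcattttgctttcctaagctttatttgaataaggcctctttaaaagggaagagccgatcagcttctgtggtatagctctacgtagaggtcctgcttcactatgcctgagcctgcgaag
H2bc3: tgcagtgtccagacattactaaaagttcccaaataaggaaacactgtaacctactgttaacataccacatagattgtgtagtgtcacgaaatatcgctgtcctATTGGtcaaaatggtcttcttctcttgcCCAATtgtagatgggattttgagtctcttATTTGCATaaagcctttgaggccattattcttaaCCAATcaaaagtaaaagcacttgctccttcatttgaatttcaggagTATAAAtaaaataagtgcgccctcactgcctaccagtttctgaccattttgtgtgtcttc
H4c11: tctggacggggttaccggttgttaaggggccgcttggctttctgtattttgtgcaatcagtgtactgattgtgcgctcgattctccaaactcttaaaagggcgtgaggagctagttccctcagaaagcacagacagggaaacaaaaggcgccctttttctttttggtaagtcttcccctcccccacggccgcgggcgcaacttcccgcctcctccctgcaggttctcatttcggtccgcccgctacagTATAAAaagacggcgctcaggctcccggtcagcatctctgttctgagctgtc
H2bc7: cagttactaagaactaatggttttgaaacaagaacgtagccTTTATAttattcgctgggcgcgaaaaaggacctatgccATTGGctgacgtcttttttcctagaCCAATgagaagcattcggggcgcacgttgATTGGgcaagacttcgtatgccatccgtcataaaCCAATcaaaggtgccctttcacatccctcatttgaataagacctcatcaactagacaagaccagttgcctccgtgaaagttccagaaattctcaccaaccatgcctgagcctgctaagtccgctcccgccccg
Olig2: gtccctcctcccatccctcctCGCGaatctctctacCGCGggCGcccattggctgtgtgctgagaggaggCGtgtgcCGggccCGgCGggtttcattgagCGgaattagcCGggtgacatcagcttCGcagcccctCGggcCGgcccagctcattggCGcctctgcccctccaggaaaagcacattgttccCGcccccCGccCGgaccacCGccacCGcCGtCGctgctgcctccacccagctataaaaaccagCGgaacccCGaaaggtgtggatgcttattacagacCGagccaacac
Rhob: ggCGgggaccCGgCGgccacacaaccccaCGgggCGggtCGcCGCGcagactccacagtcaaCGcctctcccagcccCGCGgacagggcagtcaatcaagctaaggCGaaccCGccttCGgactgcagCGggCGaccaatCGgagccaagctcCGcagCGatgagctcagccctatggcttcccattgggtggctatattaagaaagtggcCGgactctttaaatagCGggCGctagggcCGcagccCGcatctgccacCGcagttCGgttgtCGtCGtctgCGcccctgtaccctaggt

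The Olig2 promoter held 25 CpGs and the Rhob promoter 29, against 3 in H2bc3, 11 in H2bc11, 14 in H2bc7 and 18 in H4c11. Over 7130 promoters of genes at pairs, the median ratio of observed to expected CpG was 0.760, against 0.705 for genes at other captured fragments and 0.592 for genes outside captured fragments with a loop. The ratio was above 0.6 in 71.3%, 61.8% and 49.2% of these promoters. CCGGAAG, the core bound by ETS factors, was found on either strand in 18.8% of promoters at pairs and in 15.0% of all 15887 promoters of the same length. AAGATGGC, a YY1 site, was found in 4.49% against 3.81%, and GCGCATGC, a core of NRF1 sites, in 5.29% against 4.50%. CCAAT (38.5% against 37.5%), TATAAA (6.63% against 7.75%), ATTTGCAT (1.22% against 1.39%) and the CTCF part AGGGGGCGC (2.33% against 2.20%) lay near the share of all promoters. In the 38 promoters of chromosome 13 histone genes CCAAT was found in 84.2%, TATAAA in 60.5% and ATTTGCAT in 21.1%, while their ratio of observed to expected CpG was near that of all genes at pairs, with a median of 0.752 and 71.1% above 0.6. None of the 7 motifs contains another, and a match marks letters, not binding.

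Pairs in both orders were about as frequent in both genotypes relative to the loops listed. On the 17 chromosomes that held such pairs, they made up 15.98% of 42264 distinct pairs in WT and 14.87% of 37882 in TKO. TKO listed 0.834 times as many pairs in both orders as WT, and 0.888 times as many loops. Among pairs whose ends were both captured, 39.3% in WT and 37.6% in TKO were listed in both orders. The ratio of TKO to WT pairs lay between 0.721 on chromosome 16, with 251 and 181 pairs, and 0.990 on chromosome 13, with 313 and 310. Of those on chromosome 13, 78 in WT and 113 in TKO joined histone fragments, described below. With 1 library per genotype, none of these differences has a replicate check, and a missing order may mean a score under the lowest one listed, 5. Chromosomes 1 and X had no pair in both orders in either library, although 889 and 215 pairs in WT and 723 and 166 in TKO joined fragments captured there. Both chromosomes were therefore kept out of all comparisons between pairs.

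The pairs spanned a median of 191.8 kb in WT and 195.5 kb in TKO, with quartiles at 103.6 and 343.5 kb and at 107.5 and 344.2 kb. Pairs of captured fragments in 1 order were shorter, at 162.2 and 149.8 kb, and loops to an uncaptured end were longer, at 243.52 and 250.02 kb. Under 100 kb lay 24.2% of pairs in both orders in WT and 23.6% in TKO, against 34.6% and 37.5% of the captured pairs in 1 order. Neighbouring promoters gave the shortest pairs. Prr12 and Nosip with Prrg2, on chromosome 7, lay 10.03 kb apart in WT, with scores of 5.09 and 5.56 in the 2 directions. Calr, encoding the endoplasmic reticulum chaperone calreticulin, and Farsa, encoding a phenylalanyl-tRNA synthetase subunit, lay 10.08 kb apart on chromosome 8 and were listed in both orders in both genotypes. The longest pair of WT joined histone fragments of chromosome 13 over 1991.97 kb, and another ran from Cryz with Tyw3 to Negr1 on chromosome 3, over 1966.94 kb. The longest of TKO, at 1981.76 kb, ran from the H3c11 fragment to a fragment without a gene of the RNA table, and the longest with a histone gene at each end spanned 1900.32 kb.

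**Figure D1:**
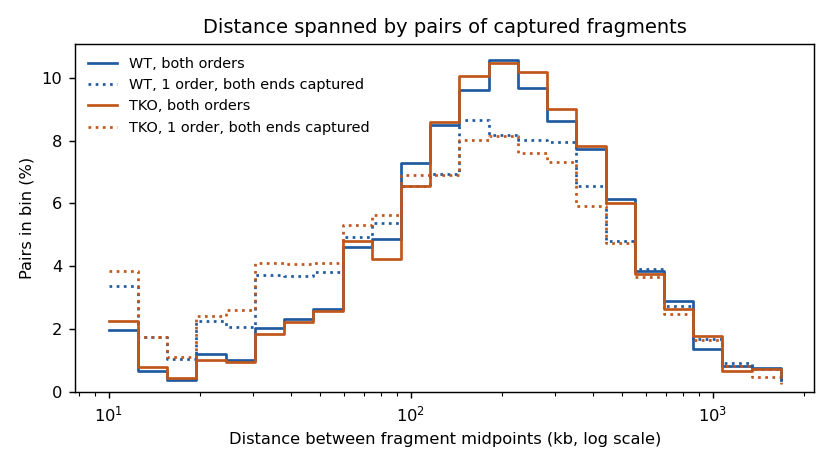
Share of pairs in each distance bin (y axis, percent) against the distance between fragment midpoints (x axis, kb, log scale), for pairs in both orders (solid lines) and captured pairs in 1 order (dotted lines) of the WT and TKO libraries. The solid lines of both genotypes lie close together with medians of 191.8 and 195.5 kb, and the dotted lines are higher under 100 kb.

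Among pairs listed in both orders, the scores of the 2 directions, which are the authors' own values, were only loosely related. The median ratio of the higher to the lower was 1.22 in each library, and Spearman's rho between directions was 0.41 over 6754 WT pairs and 0.38 over 5634 TKO pairs. Pairs with a direction under the lowest score listed, 5, are left out, which narrows the range, so rho does not describe captured pairs in general. The ends of a pair share 1 library and its depth, and fragments recur among pairs. The lower score had a median of 6.30 in WT and 6.17 in TKO, and both scores reached 10 in 637 WT pairs (9.43%) and 464 TKO pairs (8.24%).

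Of the WT pairs in both orders, 1854 (27.5%) were in both orders in TKO too, 1278 (18.9%) were listed there in 1 order and 3622 (53.6%) in none. The 1854 shared pairs were 32.9% of the TKO pairs, of which 1088 (19.3%) had 1 order and 2692 (47.8%) none in WT. Shared pairs had higher scores, with a median lower score of 7.25 in WT against 5.95 for pairs without any order in TKO. They were also shorter, at 160.3 kb against 235.0 kb. Of the WT pairs in both orders, 46.4% were listed in at least 1 order in TKO, against 34.2% of captured pairs in 1 order and 18.4% of loops with an uncaptured end. These shares are not on an equal footing. Pairs in both orders had reached the lowest score listed in each order, and pairs with both ends captured could be found again in either order. Among pairs in both orders the share found again climbed with the score, from 33.2% of 2795 WT pairs with a lower score under 6 to 94.0% of 133 pairs at 15 and over. For TKO pairs found again in WT it went from 41.8% of 2524 to 90.7% of 86. A pair missing from a list is not shown to be absent from the cells.

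**Figure D2:**
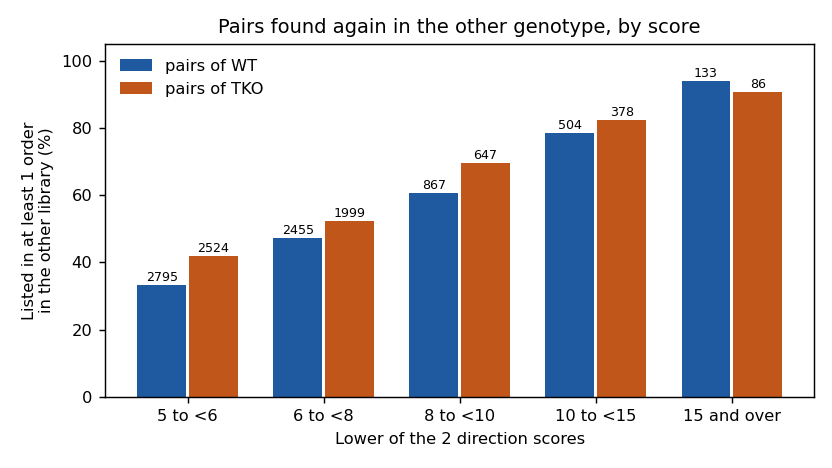
Percent of pairs in both orders (y axis) that the other genotype's library listed in at least 1 order, by the lower of the 2 direction scores (x axis), for pairs of WT and of TKO, with the number of pairs above each bar. The share goes from 33.2% and 41.8% in the lowest bin to 94.0% and 90.7% in the highest.

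Of the 6 strongest shared pairs, 4 are given first. On chromosome 4 the fragment of Morn1 and Rer1, a retrieval receptor of the Golgi, paired with that of Faap20, a member of the Fanconi anaemia core complex, over 160.1 kb, with scores of 25.84 and 28.11 in WT and 35.85 and 34.61 in TKO. Ccdc82 with Jrkl paired with Mtmr2, a phosphoinositide phosphatase, over 501.3 kb on chromosome 9, with 28.98 and 36.12 in WT and 21.98 and 30.14 in TKO. Ddx39, an RNA helicase, and Asf1b, a histone chaperone, paired over 239.0 kb on chromosome 8, with scores between 19.97 and 23.78 in all 4 listings. Ube2l3, a ubiquitin-conjugating enzyme, and Tmem191c on chromosome 16 had 20.85 and 22.60 in WT and 20.29 and 18.55 in TKO. Which genotype scored higher differed from pair to pair.

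RNA is given for the genes of the other 2. RNA values are read counts per gene divided by DESeq2's size factors, and differences are given in units of log2(value + 1), TKO minus WT, with limma's standard error (SE) and adjusted p. Gprc5b, an orphan receptor of the nervous system, had 2408, 2491 and 2548 in the WT libraries and 640 and 562 in TKO, and fell by 2.05 (SE 0.10, adjusted p = 6.79e-08). Its partner fragment on chromosome 7, 139.2 kb away, carried Iqck, which fell by 1.93 (adjusted p = 0.000951), and Knop1, with 4520, 4464 and 4750 against 4250 and 4125 (adjusted p = 0.159). The pair itself scored 25.61 and 29.85 in WT and 23.23 and 20.04 in TKO. Hs1bp3 rose by 0.65 (adjusted p = 0.000241) while Rhob, a small GTPase whose promoter is printed above, had 11616, 13102 and 10459 against 9585 and 9262. Rhob fell by 0.31 (adjusted p = 0.0134), a call lost without TKO library 2 (adjusted p = 0.0910). The Hs1bp3 and Rhob fragments, 187.4 kb apart on chromosome 12, scored 29.06 and 21.39 in WT and 32.98 and 19.80 in TKO.

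The 6 highest-scoring pairs without any listing in the other genotype held 1 histone pair in WT, from the H2bc11 to the H2bc3 fragment, and 4 in TKO, described with the histone genes. Others of WT joined, on chromosome 15, Arhgap39 with Rpl8, a ribosomal protein gene (22.49 and 22.15), on chromosome 5 Ctbp1, a corepressor, with Uvssa, a factor of transcription-coupled repair (26.94 and 19.66), and on chromosome 6 Lsm3 and Xpc, a sensor of DNA damage, with Ccdc174 (19.46 and 20.02). Gfm2 with Nsa2 paired with Ankra2 and Utp15, an rRNA processing factor, over 1127.2 kb on chromosome 13, with scores as unequal as 16.72 and 48.67. Rpl8 RNA, at 1 of these ends, had 63005, 54762 and 56920 in WT and 60853 and 59557 in TKO (adjusted p = 0.586), and Uvssa had 437, 638 and 429 against 595 and 713 (adjusted p = 0.119). Utp15 rose by 0.45 (SE 0.09, adjusted p = 0.0027). Nsa2 rose by 0.30 (adjusted p = 0.00895), a call lost without TKO library 1 (0.0772). Arhgap39 fell by 0.35 (adjusted p = 0.0385), a call lost without TKO library 1 or 2 (0.0650 and 0.189), WT library 1 or 3 (0.146 and 0.139) and with libraries scaled to equal totals (0.0654). Ctbp1 fell by 0.23 (adjusted p = 0.0133), a call lost without TKO library 1 or 2 (0.0660 and 0.0656) or WT library 3 (0.0559). The TKO pairs other than the histone pairs joined Clasp2, a microtubule-binding protein, with Ubp1 on chromosome 9 (16.79 and 18.82) and Parp2 with Pip4p1 on chromosome 14 (15.83 and 17.66). Clasp2 had 2886, 2535 and 2775 against 2570 and 2566 (adjusted p = 0.442), and Parp2 2106, 2289 and 2005 against 1955 and 2156 (adjusted p = 0.687). Rpph1, the RNA component of RNase P, which lies on the Parp2 fragment, rose by 1.74 (adjusted p = 0.0085), a call lost without TKO library 2 (0.0564).

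Among histone genes TKO listed more pairs than WT. The replication-dependent histone genes of chromosome 13 lay on 27 fragments in 2 blocks, 10 on the left from base 21713203 and 17 on the right, separated by 1.49 Mb. Of 351 possible pairs among these fragments, 78 (22.2%) were in both orders in WT and 113 (32.2%) in TKO, a ratio of 1.45 against 0.827 for all other pairs. Within the left block there were 7 and 16 pairs, within the right 41 and 55, and across the gap 30 and 42. Listings in either order gave 215 loops in WT and 279 in TKO. Of the WT pairs, 51 were in both orders in TKO and 15 in none, and 31 TKO pairs had no order in WT. Among pairs in both orders, median lower scores across the gap and within a block were 8.78 and 7.04 in WT, and 8.81 and 7.20 in TKO. Fragment pairs with a direction under the lowest score listed, 5, are not in these medians. The medians therefore do not show how frequent contacts across the gap were beside those within a block. Of the 56 pairs over 1.5 Mb in each library, 27 in WT and 37 in TKO joined histone fragments.

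**Figure D3:**
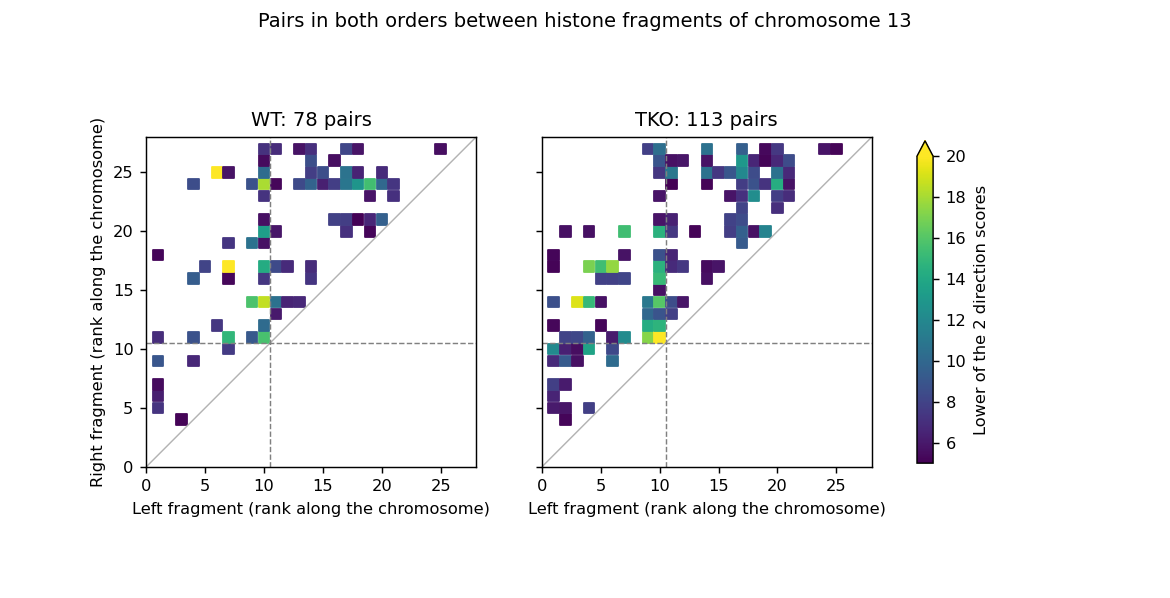
Pairs in both orders among the 27 histone fragments of chromosome 13 in WT (left, 78 pairs) and TKO (right, 113 pairs), with each fragment at its rank along the chromosome on both axes and the lower direction score as colour, capped at 20. Dashed lines separate the left block of 10 from the right block of 17, and the upper left field holds the 30 and 42 pairs across the gap.

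Several histone fragments were also the fragments with the most partners. The fragment of H2ac11, H2bc11 and H4c9 had 17 partners in WT and 20 in TKO, that of H2ac7, H2bc7, H2bc8 and H3c4 had 12 and 21, that of H2ac10 and H4c8 had 13 and 20, and that of the linker histone H1f4 with H2bc6 had 8 and 19. The fragment of H2bc3 and H3c3 had 16 and 9. All these fragments were taken for their number of partners in WT or in TKO, so nothing is read from the direction of their counts. The pair of H2bc11 with H2bc3, whose promoters are printed above, scored 18.10 and 21.77 over 1700.96 kb in WT and was not listed in TKO. H4c11 with H1f3 (20.06 and 19.19 over 1816.69 kb) and H3c11 with the H2bc7 fragment (21.46 and 17.56 over 1790.53 kb) were listed in TKO and not in WT. RNA of the histone genes was low in these libraries and near-identical copies make the counts of single genes uncertain. Their summed values were 3637, 3449 and 3863 in WT and 3200 and 3620 in TKO, so the genotypes overlapped. Of 41 tested, 0 were called higher and 3 lower, where 15.0% and 21.7% of the 13196 genes tested on the chromosomes with pairs were called, with a median log2 fold change of -0.26. H2bc4 had 799, 768 and 764 against 447 and 511 and fell by 0.70 (SE 0.13, adjusted p = 0.00128). H2ac6 fell by 2.26 and H3c10 fell by 1.90 (adjusted p = 0.0231 and 0.0352). The call of H2ac6 was lost without TKO library 1 (adjusted p = 0.145) and without WT library 1, 2 or 3 (0.0564, 0.0813 and 0.0679), that of H3c10 without TKO library 2 (0.269) and WT library 1 or 3 (0.145 and 0.129).

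The 5 fragments with the most partners in TKO all held histone genes, whereas 3 of the 5 in WT did not. Those 3 were taken for their number of partners in WT, so nothing is read from the direction of their counts. Enkd1, encoding a microtubule-associated protein of the cilium, had 19 partners in WT and 7 in TKO on chromosome 8, where its neighbours include Ctcf, encoding the architectural protein of loop anchors, with 13 and 7 pairs. Atp5d, an ATP synthase subunit, with Cbarp had 15 and 9 on chromosome 10, and Zfp128, a zinc finger gene, 15 and 4 on chromosome 7. Enkd1 RNA was 2664, 2394 and 2475 against 2020 and 1916, and fell by 0.35 (SE 0.08, adjusted p = 0.00612). Atp5d RNA was 14322, 13168 and 12942 against 13993 and 13884 (adjusted p = 0.569). Across all fragments in pairs, 52.7% of 6750 in WT and 57.7% of 6082 in TKO had 1 partner, and 448 and 319 had at least 5. Sets of 3 fragments with all their pairs in both orders numbered 999 in WT and 693 in TKO.

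The share of called genes at pairs lay near the background. Of 7126 tested genes at pairs, 1005 (14.1%) were higher and 1536 (21.6%) lower in TKO NSCs. On the same chromosomes 15.0% of tested genes were higher, 21.7% lower and 36.7% either, and over all 17744 tested genes 18.2%, 19.5% and 37.7%. With libraries scaled to equal totals, 17.2% of genes at pairs were higher and 18.7% lower, against 17.6% and 19.3% on these chromosomes. In ESCs 4.09% of the genes at pairs were higher and 10.1% lower, where 4.55%, 8.63% and 13.2% in either direction were called on the same chromosomes and 7.29%, 7.02% and 14.3% over all 17033 genes. Genes whose pairs were all in WT alone were higher in 13.8% and lower in 24.5%, and those whose pairs were all in TKO alone were higher in 15.3% and lower in 20.6%. Genes that fell more than 2-fold had 653 pairs in WT and 502 in TKO (ratio 0.769), and genes that fell by up to 2-fold 1890 and 1472 (0.779). Uncalled genes had 5239 and 4246 (0.810). Genes that rose by up to 2-fold had 1374 and 1074 (0.782), and those that rose more than 2-fold 300 and 302 (1.01). The ratio did not climb at every step of the RNA change, and was highest for genes that rose more than 2-fold. A pair can count in more than 1 class. With 1 library per genotype, a link between RNA change and number of pairs was not tested.

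Marker genes of several cell types differed between genotypes beside all of these RNA differences. Summed values of 8 NSC markers were 106246 to 119918 in WT and 41382 to 51144 in TKO, with 7 called lower, Hes5 not. Pluripotency markers summed to 411 to 616 in WT and 1941 to 3718 in TKO, mesoderm and endoderm markers to 1619 to 2043 and 4560 to 4687, epithelial and trophoblast markers to 1301 to 1396 and 3772 to 7647, and fibroblast markers to 38136 to 47961 and 95615 to 114595. Neuronal markers overlapped, at 7295 to 9134 and 7965 to 9046, and astroglial markers were at 539 to 860 and 291 to 454. The sums do not show every marker. Called higher were 2 of 4 pluripotency, 2 of 5 mesoderm and endoderm, and 3 of 4 epithelial and trophoblast markers, with 0 lower. Of 4 fibroblast markers 3 were called higher and 1 lower, of 5 neuronal markers 1 and 1, and of 4 astroglial markers 0 and 2. Of the markers in the table, Cdx2 alone was listed at 0 in any library, in WT. Their part in the loop lists and in the RNA results was not tested, and in bulk cultures fewer cells of a type and less RNA per cell cannot be told apart. Tet3 RNA was 4050, 4089 and 4209 in WT and 2379 and 2597 in TKO, and Tet2 1276, 1295 and 1066 against 1146 and 1555. Tet1 RNA was 663, 717 and 901 against 517 and 574. The table counts whole genes, so reads outside a deleted part would remain and these values do not check the genotype.

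RNA differences at the ends of a pair were nearly unrelated. In 6810 pairs with a tested gene at each end, taking the gene with the larger difference on each fragment, Spearman's rho between the log2 fold changes was 0.03. These points share the 5 libraries and many of the genes. Both ends were called in 1022 pairs (15.0%), of which 381 were lower at both, 188 higher at both and 453 opposite, so 55.7% had the same direction. Among captured pairs in 1 order, both ends were called in 1309 (15.3%), and 56.5% of these had the same direction. The share with the same direction was 58.7% of 206 among shared pairs, 50% of 336 among pairs of WT with no order in TKO and 58.1% of 234 among pairs of TKO with no order in WT. More genes were called lower than higher, so an even split is not the baseline, and no baseline was worked out.

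**Figure D4:**
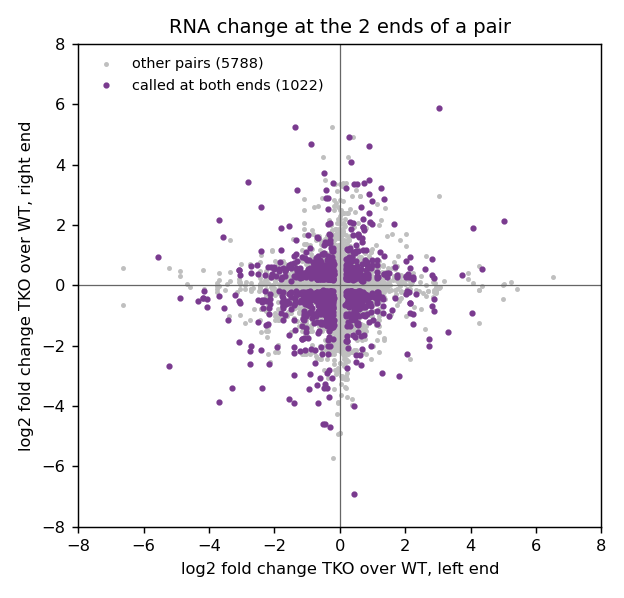
Log2 fold change (TKO over WT) of the gene at the left end (x axis) against that at the right end (y axis) of 6810 pairs, with the 1022 pairs called at both ends in purple and the others in grey. Points spread along both axes, with rho of 0.03, and fill opposite quadrants about as much as equal ones.

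The pairs whose genes fell furthest at both ends were then taken, so that the size of these differences is set by the choice. Olig2 and Olig1, bHLH factors of the oligodendrocyte lineage, lie 45.8 kb apart on chromosome 16. Their pair scored 18.06 and 13.23 in WT, and TKO listed only the direction from Olig2 to Olig1, at 11.42. Olig2 RNA was 814, 1115 and 1464 in WT and 45.9 and 17.6 in TKO, and fell by 5.22 (SE 0.36, adjusted p = 1.08e-06). Olig1 RNA was 918, 1126 and 1477 against 202 and 158, and fell by 2.68 (SE 0.20, adjusted p = 1.91e-06). No TKO library overlapped WT for either gene. Elastin (Eln) and the tight junction gene Cldn3, 240.6 kb apart on chromosome 5, scored 6.91 and 5.42 in WT alone. Eln RNA was 273, 178 and 256 against 22.0 and 12.7 (fell by 3.71, adjusted p = 1.7e-05), and Cldn3 RNA 587, 446 and 462 against 40.4 and 27.3 (fell by 3.86, adjusted p = 1.1e-06).

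Pairs of falling genes were not all WT pairs. Paqr9, a membrane receptor gene of chromosome 9, paired in TKO alone with Pls1, an actin bundling protein (5.74 and 6.39 over 283.0 kb), and with the cation channel Trpc1 (5.39 and 5.63 over 188.8 kb). Paqr9 RNA was 236, 191 and 200 in WT and 27.6 and 33.2 in TKO, Pls1 376, 414 and 311 against 51.4 and 68.3, and Trpc1 358, 475 and 469 against 108 and 83.9, and Paqr9 fell by 2.74, Pls1 fell by 2.60 and Trpc1 fell by 2.16 (adjusted p = 3.62e-05, 1.25e-05 and 2.2e-05). Prokr1, a prokineticin receptor, fell by 3.30 and Efcc1 fell by 3.39 (adjusted p = 9.68e-06 and 1.91e-05) and their pair scored 5.84 and 7.5 in WT alone. The growth factor gene Fgf17 fell by 3.39 (adjusted p = 1.24e-05), with 593, 392 and 530 against 68.9 and 31.2, and its pair to the fragment of Bmp1 and Sftpc scored 8.06 and 8.74 in WT alone. Sftpc, a lung surfactant protein gene, had 37.2, 11.9 and 31.1 against 3.67 and 3.90 and fell by 2.39 (adjusted p = 0.0356), or fell by 1.47 with a pseudocount of 8. That call was lost without TKO library 1 or 2 (adjusted p = 0.0840 and 0.0750) and without WT library 1 or 3 (0.147 and 0.124).

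Pairs whose genes rose furthest at both ends were taken by the same rule. On chromosome 19, Best1, a chloride channel gene, and Myrf, the myelin regulatory factor, 238.4 kb apart, scored 6.39 and 7.49 in WT alone although both genes were higher in TKO. Myrf RNA was 99.2, 134 and 155 in WT and 515 and 609 in TKO, a rise of 2.13 (SE 0.24, adjusted p = 3.66e-05). Best1 RNA was 2.07, 0 and 0 against 34.9 and 61.5, with a fold change of 5.03 that became 2.66 with a pseudocount of 8 (adjusted p = 0.00384 and 0.000911). The carbonic anhydrase genes Car13 and Car3, 222.6 kb apart on chromosome 3, also paired in WT alone (5.54 and 5.48) and rose by 1.67 and 2.05 (adjusted p = 0.00162 and 0.00028). Dusp2, a phosphatase of MAP kinases, rose by 4.07 (adjusted p = 0.000989), with 2.07, 6.50 and 7.77 against 129 and 74.2. Its partner Gpat2 rose by 1.89 (adjusted p = 0.0185), lost without TKO library 2 (1.43, adjusted p = 0.164). Their pair scored 6.59 and 8.96 in TKO and 6.69 in 1 order in WT. Inka1, an inhibitor of a p21-activated kinase, rose by 2.86 (adjusted p = 2.01e-06), with 244, 149 and 199 against 1605 and 1234, and lay 10.4 kb from Uba7 in a pair listed in both orders in TKO (10.41 and 6.55) and in 1 order in WT (7.15). Uba7, encoding an activating enzyme of the ubiquitin-like modifier ISG15, had 53.7, 31.4 and 58.3 against 107 and 135 and rose by 1.36 (adjusted p = 0.0197), a call lost without TKO library 1 or 2 (0.0518 and 0.126).

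Other pairs were taken for opposite changes at their ends. Gstm6 and Gstm1, glutathione S-transferase genes 72.0 kb apart on chromosome 3, scored 14.33 and 7.46 in TKO and 9.28 in 1 order in WT. Gstm6 RNA was 116, 109 and 73.8 in WT and 373 and 446 in TKO, a rise of 2.05 (SE 0.27, adjusted p = 0.000116). Gstm1 RNA was 10954, 12369 and 10160 against 1888 and 2745, and fell by 2.29 (SE 0.13, adjusted p = 2.95e-07). The groups did not overlap for either gene, and reads of such related genes can be split between them. Rtp4, an interferon-induced gene, fell by 2.81 (adjusted p = 0.000854). Its pair with Sst, the somatostatin gene, scored 6.44 and 10 in WT and 5.5 in 1 order in TKO. Sst RNA was 10.3, 0 and 1.94 against 38.6 and 29.3, a rise of 3.43 that became 1.88 with a pseudocount of 8 (adjusted p = 0.0319 and 0.0125). The call was lost without TKO library 1 or 2 (adjusted p = 0.157 and 0.103) and without WT library 2 or 3 (0.0560 and 0.0646).

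**Figure D5:**
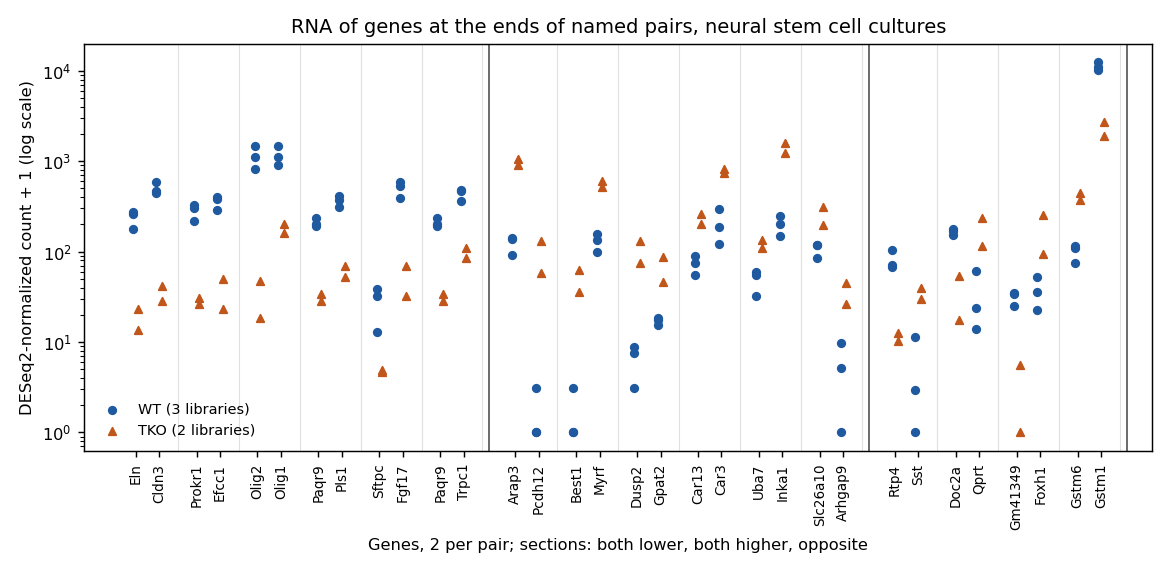
DESeq2-normalized count + 1 (y axis, log scale) of each gene in 3 WT (circles) and 2 TKO (triangles) NSC libraries, with the genes of a pair side by side, for the named pairs that are lower at both ends, higher at both ends and opposite. Olig2 lies at 814 to 1464 in WT and at 17.6 to 45.9 in TKO, and Gstm6 and Gstm1 move in opposite directions.

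Neural stem cell and radial glia genes stood at more pairs in WT than in TKO. Of the 10 listed members tested at pairs, 9 fell and 0 rose, where 15.0% of tested genes on these chromosomes were higher and 21.7% lower, with a median log2 fold change of -1.91, against -0.03 over all genes tested on these chromosomes, and 22 of the 27 tested members anywhere fell. The list had 14 pairs in WT, of which 2 were in both orders in TKO, 4 in 1 order and 8 in none, and 4 pairs in TKO. Over all WT pairs, 27.5% were in both orders in TKO, 18.9% in 1 order and 53.6% in none. All pairs in TKO numbered 0.834 times those of WT. These counts are small and come from 1 library per genotype. Pax6, a patterning factor of dorsal progenitors, had 2825, 2575 and 2840 in WT and 234 and 78.1 in TKO and fell by 4.33 (SE 0.33, adjusted p = 2.02e-06). Its pair with Elp4 and Immp1l scored 10.53 and 7.20 in WT and 5.81 in 1 order in TKO. The fatty acid binding protein gene Fabp7 paired with Ranbp2 (15.36 and 8.24) and the SoxB1 factor Sox1 with Tubgcp3 (9.03 and 9.45) in WT alone. Sox1 RNA fell by 2.02 and Fabp7 RNA fell by 1.81 (adjusted p = 2.15e-07 and 1.99e-05). Lix1 kept a pair with Lnpep in both orders, at 18.46 and 19.87 in WT, then 7.82 and 9.64 in TKO, and fell by 1.52 (adjusted p = 3.35e-05). Rfx4 fell by 2.02 (adjusted p = 0.000295), and fell by 1.33 without TKO library 1.

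Patterning factors moved both ways. Of 26 homeobox and patterning genes tested at pairs, 10 rose and 7 fell, beside 15.0% higher and 21.7% lower of all genes tested on these chromosomes, with 26 pairs in WT and 23 in TKO. Of the 91 listed members tested anywhere, 26 rose and 36 fell. Nkx2-1, a factor of ventral forebrain, had 347, 563 and 305 in WT and 3249 and 5263 in TKO, a rise of 3.40 (SE 0.25, adjusted p = 1.58e-06), and its pairs with Mbip (10.52 and 9.55) and Brms1l (13.90 and 5.20) were in TKO alone. Mbip rose by 0.73 (adjusted p = 0.000397). Msx1, a factor of dorsal midline cells, had 1076, 1232 and 907 against 31.2 and 39.0, and fell by 4.89 (SE 0.21, adjusted p = 3.84e-08), yet its pair with Stx18 was in both orders in both, at 9.89 and 10.19 in WT, with 14.13 and 11.70 in TKO. The proneural gene Neurog2 fell by 5.55 (adjusted p = 1.18e-06), with 513, 388 and 577 against 14.7 and 5.85, and kept its pair with Alpk1, which scored 8.68 and 8.07 in WT and 11.49 and 9.42 in TKO. Of 11 Hox genes tested at pairs 5 rose and 0 fell, and their pairs numbered 11 and 12. Of the 24 Hox genes tested anywhere, 12 rose and 0 fell. Hoxc9 was listed at 0 in all 3 WT libraries and at 23.9 and 27.3 in TKO, and its pair on chromosome 15 was in both orders in both (7.34 and 8.29, then 5.09 and 8.34). The Iroquois pairs Irx1 with Irx2 and Irx3 with Irx5, chosen after their values were seen, were shared, with 9.77 and 7.26 against 20.03 and 16.94 and with 15.22 and 20.46 against 12.11 and 16.12. Irx3 rose by 1.63 (adjusted p = 6.7e-05), and Irx1 had 1539, 1952 and 1971 against 1038 and 1831.

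Imprinted genes, expressed from 1 parental allele, had more pairs in TKO. Of 17 tested at pairs, 9 rose and 4 fell (15.0% and 21.7% of all genes on these chromosomes), with a median log2 fold change of 0.43. Of the 38 listed members tested anywhere, 23 rose and 8 fell, with a median of 0.53. Pairs of the members numbered 23 in WT and 33 in TKO, 12 of them shared, from 1 library per genotype. Igf2, a fetal growth factor, had 644, 933 and 1093 in WT and 2840 and 2449 in TKO and rose by 1.60 (SE 0.18, adjusted p = 3.78e-05). It had 2 pairs in both orders in WT and 5 in TKO. The pair with Mrpl23, 131.8 kb away, was listed in TKO alone (15.04 and 10.69), and the pair with Ctsd at 13.99 and 11.40 in TKO and 5.35 in 1 order in WT. Magel2 had 387, 431 and 612 against 2402 and 3546, a rise of 2.64 (SE 0.20, adjusted p = 2.21e-06), and its pair scored 7.61 and 6.32 in WT and 19.62 and 18.69 in TKO. Zim1 RNA fell by 2.10 (adjusted p = 2.37e-05), and had 2 pairs in WT and 4 in TKO.

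Ribosomal protein genes, chromatin factors and protocadherins had fewer pairs in TKO, as did all genes together, where the ratio was 0.834. The shares of all genes called on these chromosomes, 15.0% higher and 21.7% lower, stand beside each count that follows. The 54 ribosomal protein genes tested at pairs had 150 pairs in WT and 108 in TKO. Of these genes, 15 rose and 0 fell, or 27 and 0 with libraries scaled to equal totals. Of the 77 ribosomal protein genes tested anywhere, 26 rose and 0 fell. Rps20 rose by 0.35 (adjusted p = 0.000601) and Rpl12 by 0.33 (adjusted p = 0.00134), and their pairs, 1 and 3, were in both orders in WT only. Of 9 genes of the cohesin and loop machinery, 2 rose and 4 fell, with 31 and 20 pairs, and of 11 Polycomb genes 2 rose and 5 fell, with 25 and 20 pairs. Of the 28 listed Polycomb genes tested anywhere, 9 rose and 7 fell. Phf19, a PRC2 accessory factor, had 1592, 1590 and 1658 against 366 and 403 and fell by 2.07 (SE 0.11, adjusted p = 1.56e-07). Its pair with Cntrl scored 16.89 and 11.31 in WT and 5.21 in 1 order in TKO. The PRC2 methyltransferase Ezh2 fell by 0.60 (adjusted p = 1.87e-05). Of 26 clustered protocadherin genes, cell surface proteins that give neurons their identity, 2 rose and 2 fell. They had 24 pairs in WT and 17 in TKO, of which 13 and 9 joined members with each other.

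Genes of other lineages and of the Wnt pathway stood at few pairs, and their counts stand beside the same shares of 15.0% higher and 21.7% lower. Of 8 gliogenic genes 1 rose and 2 fell, while of the 18 listed members tested anywhere 1 rose and 11 fell. Mlc1, an astroglial membrane protein, fell by 6.64 (adjusted p = 3.56e-09), from 3348, 3168 and 3240 to 42.2 and 23.4, with 3 pairs in WT and 1 in TKO. Of 16 Wnt pathway genes 2 rose and 5 fell. Wnt8b, a ligand of the dorsal midline, had 5949, 4578 and 5067 in WT and 31.2 and 55.6 in TKO, and its only pair, with Cox15 and Cutc, was in TKO (5.90 and 6.31). Of 5 pluripotency genes 3 rose and 1 fell. Pou5f1 rose by 2.74 (adjusted p = 5.68e-06), with 280, 320 and 422 against 3044 and 1650, and had a pair with Flot1 and Ier3 in TKO alone (8.16 and 5.81). Dnmt3l, a cofactor of de novo DNA methylation and 1 of 4 germline genes at pairs, had 6.20, 6.50 and 3.89 against 154 and 111, a rise of 4.36 (SE 0.61, adjusted p = 0.000179), and 1 of its 3 pairs, with Gatd3a, was shared. Of 11 proneural and neuronal genes 1 rose and 2 fell, of 8 mesoderm and endoderm genes 4 rose and 0 fell, of 7 epithelial genes 3 rose and 1 fell, and of 5 mesenchymal genes 3 rose and 2 fell. Of the 29 proneural and neuronal genes tested anywhere, 8 rose and 6 fell. Such counts were 16 and 1 for 26 pluripotency genes and 9 and 1 for 20 mesoderm and endoderm genes. They were 13 and 2 for 19 epithelial genes, and 11 and 4 for 18 mesenchymal genes.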

How the data were processed

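Promoter capture Hi-C of 1 WT and 1 TKO NSC library and RNA-seq of 3 WT and 2 TKO lines of NSCs and of ESCs were used. Libraries were prepared and captured by Arima Genomics and sequenced to between 170 and 190 M raw read pairs, per the labels. The deposited loop lists give 2 mm10 fragments and a score of at least 5 per loop, per the file contents. The sources used here give neither the loop caller nor the meaning of the score, and reads per loop are unknown, so no interval was set on a pair. The deposited RNA values are a signal, read counts divided by DESeq2 size factors by the authors, per the labels, 1 table per cell type. Tools named in the submitters' processing notes include STAR 2.7.3a, featureCounts, DESeq2 1.40.2 and Trim Galore 0.6.5.

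Loops were turned into unordered pairs with Python 3.11.15 and pandas 2.3.3, and a pair was kept when both orders were listed. RefSeq genes (GRCm38.p6) were placed on fragments by start site, or by either end of the gene where no strand was given, and 92.3% of 17771 NSC table genes had a position. RNA was tested with limma 3.58.1 (R 4.3.3, trended prior) on log2(value + 1) over genes with a mean of at least 10, and called at a Benjamini-Hochberg adjusted p under 0.05. The model was tested on simulated data. NSC values came back as whole reads in 100% of cases (tolerance 0.001), 42.8 to 49.1 M per library, and were tested with edgeR 4.0.16 and DESeq2 1.42.0 as alternatives. Same-numbered WT and TKO libraries did not deviate together (correlations of 0.007 and -0.021 in NSCs), so no block was used. Replicates are separate lines, per the labels.

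Named pairs, which apart from the longest and shortest have a gene of the NSC table at each end, are the 6 shared pairs of highest score, the 6 of highest score in each genotype with no order in the other, the 6 with the largest smaller change among pairs lower or higher at both ends, the 4 opposite ones, the fragments with most partners, and the 4 longest and 4 shortest. Genes of 17 lists are given as counts with examples of the largest change. The text gives a part of these. Members, lists and examples were chosen with earlier results of these data known. Other assays of the series were not analysed here.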

Additional observations from a re-analysis of the deposited data

Results flagged for a closer look

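Clu, Sox2, Klf2 and Magel2, all at ends of pairs, drew attention because their RNA moved one way in TKO NSCs and the other way in TKO ESCs, with each called by limma in both cell types. The difference between cell types was not tested, and each table was normalized on its own. Clu, a secreted chaperone of astroglia, changed by -3.91 on the log2 scale in NSCs and by 0.59 in ESCs (adjusted p = 2.88e-09 and 0.0211). Sox2, a factor of both cell types, changed by -1.02 and 0.30 (adjusted p = 1.08e-05 and 0.0112). Klf2, a factor of naive pluripotency, changed by 0.78 and -0.54 (adjusted p = 0.0133 and 0.000109), with the NSC call lost without TKO library 1 (adjusted p = 0.122). The imprinted gene Magel2 changed by 2.64 and -0.73 (adjusted p = 2.21e-06 and 0.0311).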

How the results depend on the processing

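A score of at least 7 in each direction left 2401 WT pairs, 1811 TKO pairs and 604 shared pairs, and a score of at least 10 left 637, 464 and 177, since fewer loops pass. Counting pairs found in at least 1 order in the other library raised sharing to 3132 WT and 2942 TKO pairs. Lists of equal length, chromosome 8 left out, a distance of at least 20 kb, the left-out regions kept in and, added after seeing the data, histone pairs left out gave 6040 to 7764 WT, 5195 to 7023 TKO and 1679 to 2237 shared pairs, with fewer pairs in TKO each time, and fragments within 10 kb counted as equal gave 2347 shared pairs. Genes called in NSCs, 3236 higher and 3462 lower, ranged from 2318 to 3657 and from 2787 to 3579. With the replicate number as a block, where the pairing rests on numbers alone, they were 3042 and 3233 in NSCs and 1027 and 885 in ESCs. Leaving out 1 library in ESCs gave 527 to 1258 higher and 581 to 1044 lower, the lowest without TKO library 2 (527 and 581), and 727 lower without WT library 2. Of the values of single named genes in NSCs under alternatives, 2251 kept direction and side of the threshold, 96 lost the call, 29 gained it and 0 reversed. Count tests were not run in ESCs, where the whole-read check was not met in 2 libraries. Read depth per loop is unknown.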
